A study of Mus musculus with 4 samples.

Results

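DNA replication and S phase genes were followed in mouse skin 48 h after photodynamic treatment. The group was a list of 29 genes that copy DNA or prepare cells for copying it given by name, and each was read from the brightest array probe whose accession maps to it. On the arrays 28 of the 29 had a probe, of 16862 genes with a usable probe in all, and Gins1 was not analysed here. Each group was measured on 1 array, and without replicates no test was run on any difference.

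The 4 groups were untreated tail, treated tail, untreated back and treated back. Treated skin received methyl aminolevulinate cream (Metvix), a precursor that skin cells turn into a light-sensitive porphyrin, then 2.5 h in the dark and 636 nm red light. Tails were given 10 J/cm2 of light and backs 2.5 J/cm2, so site and dose cannot be told apart. The labels give the controls no treatment, say that backs were shaved, and name 3 animals a group without stating whether their RNA was pooled. The samples are labelled as skin, while the extraction protocol names epidermis for the tail. Strain, sex and age of the mice are not given in the sources used here.

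Before a cell copies its genome, Cdc6 and Cdt1 load the ring of Mcm2 to Mcm7 onto replication origins, and Cdc45 with the GINS complex turns that ring into a working helicase. Polymerases, the sliding clamp Pcna and its loader then make the new strands from deoxynucleotides, and Fen1 and Lig1 join the pieces of the lagging strand. E2F factors and cyclin E switch on many of these genes as a cell enters S phase, and in epidermis such cells are mostly in the basal layer and in growing hair follicles.

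Because E2F factors are the textbook regulators of this group, the RefSeq promoters (build GRCm38.p6, 250 bases before to 50 after the start) were searched for the E2F words TTTCCCGC, TTTCGCGC, TTTGCCGC and TTTGGCGC on either strand, with overlapping matches counted. A promoter was listed for 24 of the 28 genes (29 promoters in all), and 10 of those 29 promoters (34.5%) held a word, compared with 3.11% of 16798 promoters of genes usable on the arrays. The 250 bases before the start are shown for 4 genes, with E2F words in capitals: Mcm5 and Mcm6, whose words overlap, Cdc6, which was lower in treated back skin, and Tk1, which had no word and one of the larger differences there. They lie at chr8:75109259-75109508 (plus strand, Mcm5), chr1:128359706-128359955 (minus strand, Mcm6), chr11:98907901-98908150 (plus strand, Cdc6) and chr11:117826015-117826264 (minus strand, Tk1).
Mcm5: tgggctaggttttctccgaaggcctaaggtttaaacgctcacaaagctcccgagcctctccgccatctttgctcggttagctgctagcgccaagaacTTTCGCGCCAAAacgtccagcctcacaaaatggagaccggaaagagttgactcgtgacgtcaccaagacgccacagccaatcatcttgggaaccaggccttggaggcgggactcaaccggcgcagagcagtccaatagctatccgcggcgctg
Mcm6: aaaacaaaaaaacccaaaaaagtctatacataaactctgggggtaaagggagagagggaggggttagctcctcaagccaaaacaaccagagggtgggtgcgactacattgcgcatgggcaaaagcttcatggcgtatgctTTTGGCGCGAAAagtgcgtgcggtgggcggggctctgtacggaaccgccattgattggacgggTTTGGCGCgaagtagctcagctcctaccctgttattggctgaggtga
Cdc6: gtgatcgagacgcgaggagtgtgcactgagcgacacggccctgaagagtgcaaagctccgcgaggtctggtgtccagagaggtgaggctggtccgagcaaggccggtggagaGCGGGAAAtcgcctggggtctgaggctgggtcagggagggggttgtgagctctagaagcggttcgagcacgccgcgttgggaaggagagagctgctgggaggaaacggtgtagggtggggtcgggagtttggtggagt
Tk1: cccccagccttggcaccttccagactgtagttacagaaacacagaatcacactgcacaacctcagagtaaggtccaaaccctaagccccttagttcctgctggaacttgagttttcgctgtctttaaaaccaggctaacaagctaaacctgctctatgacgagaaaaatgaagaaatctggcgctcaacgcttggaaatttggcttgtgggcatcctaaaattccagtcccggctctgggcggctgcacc
Counted from the start site, the words of Mcm5 began at -153 and -149, those of Mcm6 at -110, -106 and -47, and the single word of Cdc6 at -138. The other genes with a word were Mcm3, Mcm7, Cdt1, Rfc3, Pola1, Lig1 and Uhrf1. The word CCAAT was in 16 of the 29 promoters (55.2%) and in 37.8% of promoters of usable genes, and the word TTTGAA, found in promoters of late cell cycle genes, was in 3 of 29 (10.3%) and in 14.5%. Of the 10 genes with an E2F word, 5 were at least 2-fold higher in treated back skin (median log2 difference 1.05), as were 7 of the 14 with a listed promoter and no word (median 1.20). These matches describe letters in a window and not binding.

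All values below are levels on a log2 scale, that is, the log2 processed signal of a probe minus the 75th percentile of its array, and a difference between 2 arrays is given on that scale. A gene was counted as higher or lower where the difference was at least 2-fold, which is 1 on this scale. The only error available is the scanner's error of a spot, with a median of 0.20 for these genes, which does not cover differences between animals. The 75th percentile signal was 7261 in untreated tail, 909 in treated tail, 1860 in untreated back and 1204 in treated back, so the untreated tail array was much the brightest. All 28 genes were well above background on all 4 arrays, and Mcm6 and Pcna were saturated in untreated tail, where only a bound on the difference is given. The keratins Krt5, Krt14, Krt1 and Krt10, which define keratinocytes, were saturated on all 4 arrays.

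In back skin the replication genes were higher after treatment. Of 28 genes, 15 were at least 2-fold higher and 1 was lower, with a median difference of 1.18, while 13.6% of 13461 genes were at least 2-fold higher and 12.6% were lower, with a median of -0.012. The difference was positive for 26 of 28 and larger than 2 spot errors for all 28. Among those at or above 2-fold were the transcription factor E2f1 (6.47-fold by its brightest probe), thymidine kinase Tk1 (4.77-fold), the leading-strand polymerase Pole (3.81-fold) and the origin factor Mcm10 (3.38-fold).

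**Figure D1:**
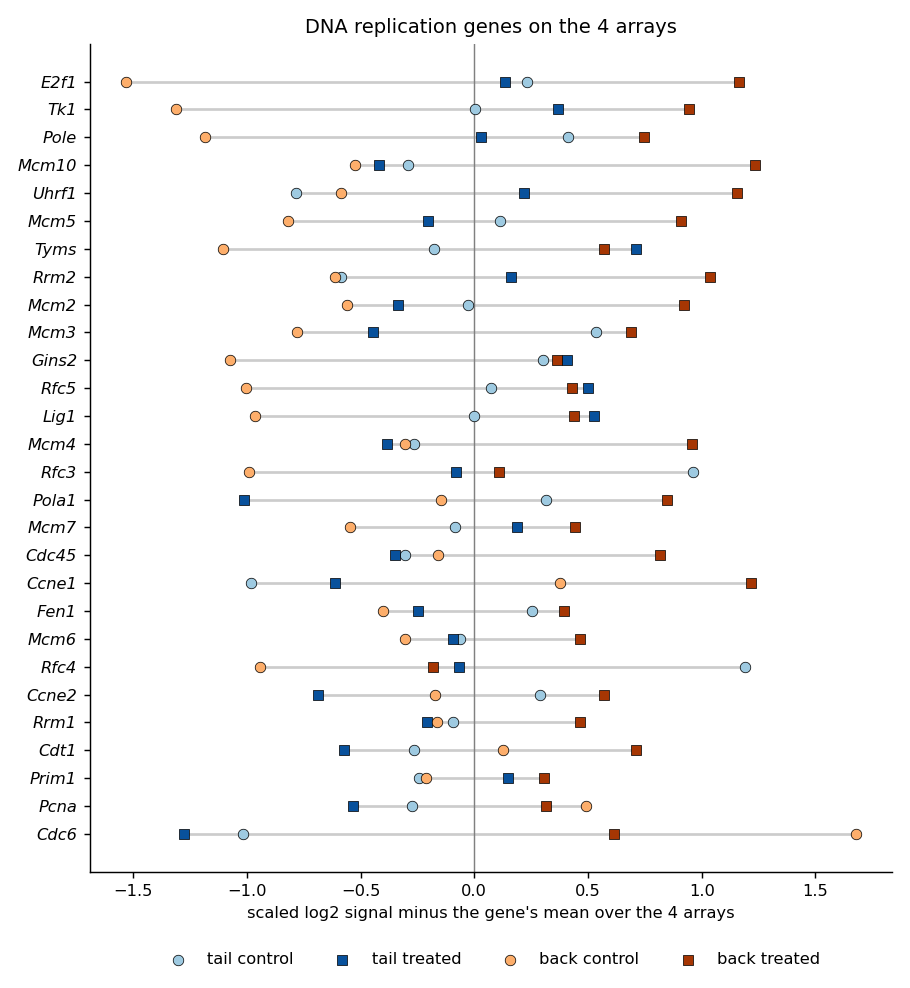
The x axis is each replication gene's log2 signal, scaled to the array's 75th percentile, minus that gene's mean over the 4 arrays, 1 point per array and 1 array per group; Mcm6 and Pcna in untreated tail are saturated and shown at their measured signal. Of the 26 genes measured on all 4 arrays, 19 were highest in treated back and 16 were lowest in untreated back. These counts were not made over all genes.

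Among the helicase and its loading factors, 6 of 11 genes were higher in treated back and 1 was lower, with a median of 1.26. The ring subunits Mcm2 to Mcm7 ran from 0.77 to 1.73, and 4 of the 6 were at least 2-fold higher. Mcm5 stood at 0.91 in untreated tail, 0.59 in treated tail, -0.022 in untreated back and 1.70 in treated back, a back difference of 1.73 (3.31-fold). Its level was highest in treated back and lowest in untreated back. Mcm3 was -1.76, -2.74, -3.07 and -1.61 in the same order, with a back difference of 1.47. Mcm2 (1.10, 0.79, 0.57 and 2.05) and Mcm4 (2.63, 2.52, 2.59 and 3.86) differed by 1.48 and 1.26 in the back. For Mcm4 the other 3 arrays lay close together with this scaling and treated back stood above them. Under another setting the tail difference of Mcm4 reached -0.87. Mcm6 and Mcm7 were 0.77 and 0.99 higher, just short of 2-fold for Mcm7.

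Of the 3 partners that help turn the ring into a helicase, 2 were at least 2-fold higher in treated back. Mcm10, which helps to start unwinding, was -1.38, -1.50, -1.61 and 0.15 in untreated tail, treated tail, untreated back and treated back, a back difference of 1.76. With this scaling the other 3 arrays lay within a narrow range and treated back was well above it. Under another setting the tail difference of Mcm10 reached 0.73. Gins2, a subunit of the GINS complex, was -1.45, -1.34, -2.83 and -1.39, so untreated back lay below the other 3 arrays, which were close together, and its back difference was 1.44. The tail difference of Gins2 reached 0.78 under another setting. Cdc45 was -3.22, -3.27, -3.08 and -2.10, a back difference of 0.98. Cdt1, which loads the ring, was 1.95, 1.64, 2.34 and 2.93, with both back arrays above both tail arrays and a back difference of 0.58.

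Cdc6, the other loading factor, was the one gene at least 2-fold lower in treated back. It was -3.12 in untreated tail, -3.38 in treated tail, -0.42 in untreated back and -1.49 in treated back. Both back arrays lay above both tail arrays, and treated back was 1.06 below untreated back (2.09-fold lower). Its second probe gave -0.77 for that difference, short of 2-fold.

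Of the clamp, its loader, the polymerases and primase, 3 of 7 were higher in treated back, with a median of 0.99. Pole was -0.18, -0.56, -1.78 and 0.15 on the 4 arrays in the order above, a back difference of 1.93. Untreated back was the lowest of the 4 arrays. The loader subunit Rfc5 was 0.85, 1.28, -0.23 and 1.21, a back difference of 1.43. Rfc3 and Rfc4, the other loader subunits in the list, differed by 1.10 and 0.76. Rfc1 and Rfc2, loader subunits outside the list, differed by 0.60 and 2.20. Pola1, the catalytic subunit of the polymerase that begins each strand, was 0.55 in untreated back and 1.54 in treated back, a difference of 0.99, and Prim1, the primase that makes its RNA primer, by 0.52. The clamp Pcna was 3.90 in untreated back and 3.72 in treated back, a difference of -0.18 that turned to 0.091 after quantile normalization. Of the enzymes that finish lagging strand pieces, the ligase Lig1 was 1.40 higher (0.16 in untreated and 1.56 in treated back) and the nuclease Fen1 0.79 higher.

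Among genes that supply deoxynucleotides, 3 of 4 were higher, with a median of 1.66. Tk1, which salvages thymidine, was 0.66, 1.02, -0.66 and 1.60, a back difference of 2.25. Untreated back was the lowest of the 4 arrays and treated back the highest. Tyms, which makes thymidylate, was 2.00, 2.89, 1.07 and 2.75, with a back difference of 1.67, and the 2 treated arrays were the highest. Rrm2, the small subunit of ribonucleotide reductase, was 2.26, 3.01, 2.24 and 3.88, with both treated arrays above both untreated ones and a back difference of 1.65. Rrm1, the large subunit, differed by 0.63.

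Of the genes of S phase entry and methylation upkeep, 2 of 4 were higher in treated back. E2f1 was -2.80, -2.90, -4.56 and -1.87, a back difference of 2.69 by its brightest probe. Its second probe gave 0.83, so the size rests on the probe chosen. Uhrf1, which carries DNA methylation over to new strands, was 1.38, 2.38, 1.58 and 3.32, with a back difference of 1.74, and its second probe gave 1.91. Ccne1, a cyclin that drives entry into S phase, was 0.084, 0.45, 1.44 and 2.28, with both back arrays above both tail arrays and a back difference of 0.84. Ccne2, the other cyclin E, differed by 0.74.

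In tail skin, treated at the higher light dose, few of these genes passed 2-fold. Of 28 genes, 1 was at least 2-fold higher and 3 were lower, and their median difference was -0.12, while 27.2% of 12858 genes were higher and 6.55% were lower, with a median of 0.33. The 4 were Uhrf1 (2.01-fold higher), Pola1 (2.51-fold lower), Rfc4 (2.39-fold lower) and Rfc3 (2.06-fold lower), and 24 genes stayed within 2-fold. For Uhrf1 the second probe gave 0.031, and for Rfc3 the direction turned after background correction by normexp (0.14). Normexp turned the tail sign of 13 of the 28 genes, and put Ccne2, Cdc45, Cdc6 and E2f1 at 2.27, 2.22, 2.05 and 1.80 there. Under every setting run per gene, 5 genes stayed positive in the tail and 10 stayed negative. In the main setting the tail difference was larger than 2 spot errors for 12 of 28 genes.

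Pola1 was 1.01 in untreated tail and -0.32 in treated tail, a difference of -1.33. Rfc4 was 3.00 and 1.74, a difference of -1.26, which reached -1.94 under another setting. Its untreated tail signal (58142) was not flagged as saturated but was close to that of the saturated Pcna (63655). Rfc3 was -0.99 and -2.04, a difference of -1.05. The loader subunits Rfc3 and Rfc4 were thus lower in treated tail, whereas Rfc5 was 0.43 higher. Rfc1 and Rfc2, loader subunits outside the list, were 0.27 and 0.90 higher. The nearest to the threshold among the rest were Mcm3 and Ccne2, both at -0.98, and after normexp Mcm3 was at 0.90. Of the nucleotide genes, Tyms and Rrm2 were 0.89 and 0.75 higher, Tk1 was 0.37 higher and Rrm1 was 0.11 lower. Mcm2, Mcm4, Mcm5 and Mcm7 differed by -0.31, -0.12, -0.32 and 0.27, and Mcm6 was lower by at least 0.031. Pcna, also a bound, was lower by at least 0.26. Mcm10, Cdc6, Cdt1, Cdc45 and Gins2 differed by -0.13, -0.26, -0.31, -0.041 and 0.10, and Pole, Prim1, Fen1, Lig1, Ccne1 and E2f1 by -0.38, 0.39, -0.50, 0.52, 0.37 and -0.097.

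**Figure D2:**
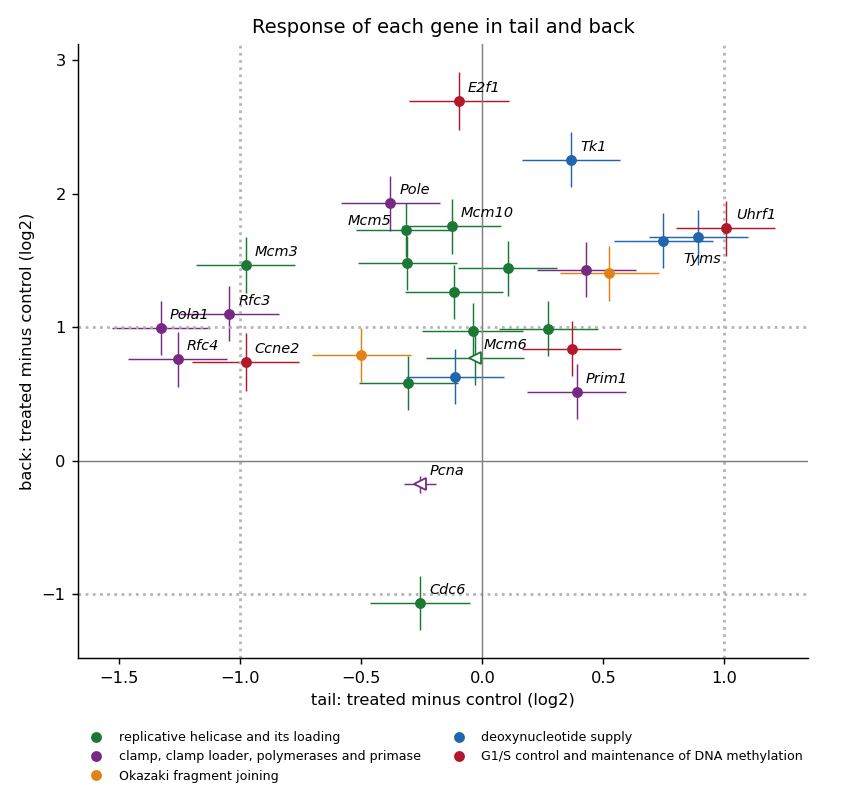
Treated minus control difference (log2) in tail skin (x axis) and back skin (y axis), 1 point per replication gene, coloured by role, with bars of 1 spot error and dotted lines at 2-fold; open left-pointing triangles mark tail bounds for Mcm6 and Pcna. Of the 26 genes measured on all 4 arrays, 25 had a back value above the tail value.

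Setting the 2 responses side by side, 15 of 26 genes measured on all 4 arrays were positive in the back and negative in the tail, 10 were positive in both and 1 (Cdc6) was negative in both, though its second probe gave 0.64 in the tail. Only 11 of these 26 tail values were larger than 2 spot errors, and the signs of the rest lay within that error. After normexp 13 were positive in the back and negative in the tail and 12 were positive in both. In 13 genes the back was at least 2-fold higher while the tail stayed within 2-fold. This count and the counts by sign were made for the replication genes only, so no share over all genes stands beside them. The back response exceeded the tail response for 25 of 26 genes (23 after normexp), and by at least 2-fold for 16, with a median difference of 1.32. Over 11281 genes, the back response was at least 2-fold above the tail response for 15.5% and at least 2-fold below it for 28.6%, with a median of -0.20. The gap was 2.79 for E2f1, 2.44 for Mcm3, 2.32 for Pola1, 2.31 for Pole and 2.15 for Rfc3, and it was 0.13 for Prim1. For Cdc6 it was -0.81. The 2 responses come from separate array pairs of different dose, and the difference was not tested. After normexp the gap was -1.64 for Ccne2 and -1.31 for Cdc45, against 1.72 and 1.02 here, and it fell to 0.26 for E2f1, 0.43 for Mcm3 and 0.88 for Rfc3, while it was 2.14 for Pola1 and 1.94 for Pole. The second probe of E2f1 differed by -0.75 in the tail and 0.83 in the back.

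**Figure D3:**
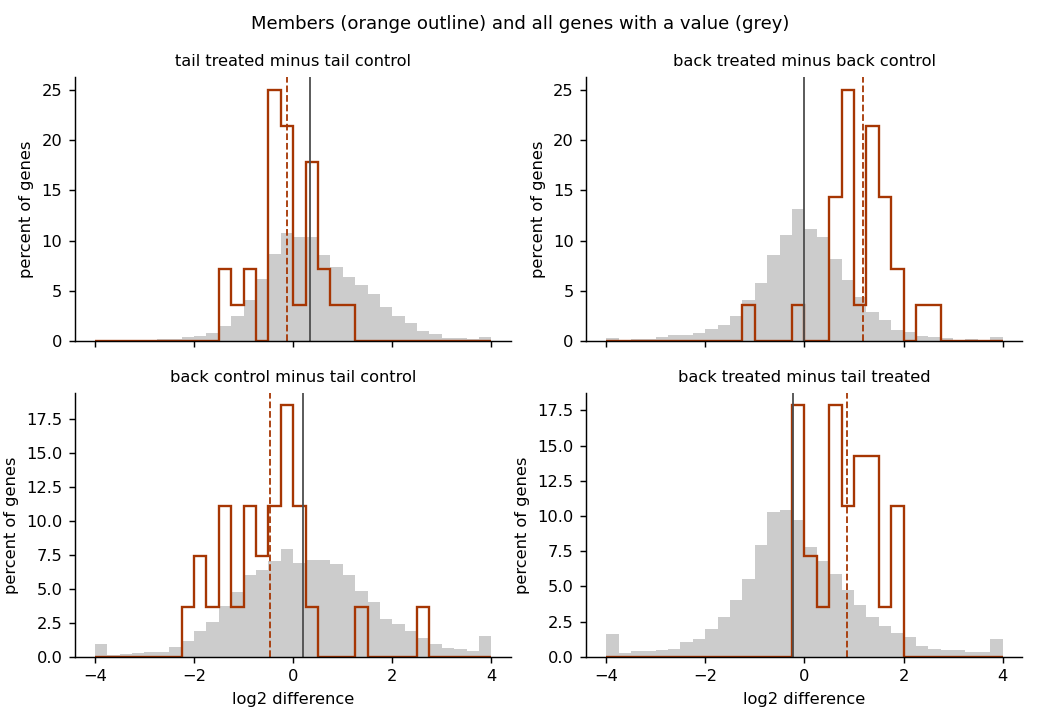
Percent of genes (y axis) at each log2 difference (x axis) in 4 comparisons, for the replication genes (orange outline, dashed line at the median) and all genes with a value (grey, solid line at the median); values beyond 4 in either direction are placed at the ends. In back skin the medians are 1.18 and -0.012.

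Untreated skins differed too. In untreated back 2 of 27 genes were at least 2-fold higher than in untreated tail and 8 were lower, with a median of -0.46, while 27.4% of 12798 genes were higher and 17.2% were lower, with a median of 0.19. Cdc6 (6.48-fold) and Ccne1 (2.56-fold) were higher in back. Rfc4 (4.38-fold), Rfc3 (3.87-fold), E2f1 (3.40-fold), Pole (3.02-fold), Gins2, Mcm3, Tk1 and Rfc5 were lower in back. The untreated tail signal of Rfc4 was close to that of saturated genes.

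After treatment the median difference between the sites had the opposite sign. Of the genes with a value in both comparisons, 16 were lower in back before treatment and higher after it, 6 (Cdc6 and Ccne1 among them) were higher in back in both, and 5 (Gins2, Rfc4, Rfc5, Lig1 and Tyms) were lower in back in both. For those 5 the difference between treated skins ran from -0.14 to -0.041, within 1 spot error. These counts were not made over all genes. In treated back 12 of 28 genes were at least 2-fold higher than in treated tail and none was lower, with a median of 0.86, while 15.9% of 14116 genes were higher and 20.5% were lower, with a median of -0.23. Cdc6 (3.70-fold), Pola1 (3.63-fold), Ccne1 (3.55-fold) and Mcm10 (3.14-fold) differed most by the probes used, but the second probe of Cdc6 differed by 0.82, short of 2-fold. After normexp Cdc6 was at -0.35 in this comparison, and E2f1, Mcm3, Ccne2, Cdc45 and Rfc3 also turned below 0. Rfc4, Rfc5, Lig1 and Tyms turned above 0, to 0.25, 0.32, 0.35 and 0.42. These comparisons share arrays with the 2 responses above and are no independent support for them.

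Other genes of DNA replication were higher in treated back more often than lower. Of 107 genes of the wider pathway with a value, 43 were at least 2-fold higher and 4 lower (median 0.78), and in treated tail 5 of 102 were higher and 6 lower (median -0.11). Over all genes with a value, 13.6% were higher and 12.6% lower in the back, and 27.2% were higher and 6.55% lower in the tail. Among other replication factors 18 of 40 were higher in the back and none was lower, including the clamp loader subunit genes Chtf18 (2.48) and Rfc2 (2.20) and the helicase gene Recql4 (1.94). Among checkpoint and repair genes 8 of 18 were higher, with Exo1 at 1.95, Fanci at 1.69 and Chek2 at 1.58, while in the tail 3 of 18 were lower, Chek1 at -1.47 among them, and 1 was higher, Rad9a at 1.42. Of the histone chaperones and related genes 4 of 10 were higher, with Chaf1a at 2.12 and Asf1b at 1.71. Of the regulators of S phase entry 9 of 29 were higher and 3 lower, the lower share being close to that of all genes. E2f7, a repressor of the E2F family, was at 3.76, and the cyclin kinase inhibitors Cdkn2c and Cdkn2b were at -1.92 and -1.73. Of other deoxynucleotide enzymes 4 of 10 were higher, with Dtymk, which phosphorylates thymidylate, at 2.07, and Samhd1, which degrades deoxynucleotides, was at -1.45.

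**Figure D4:**
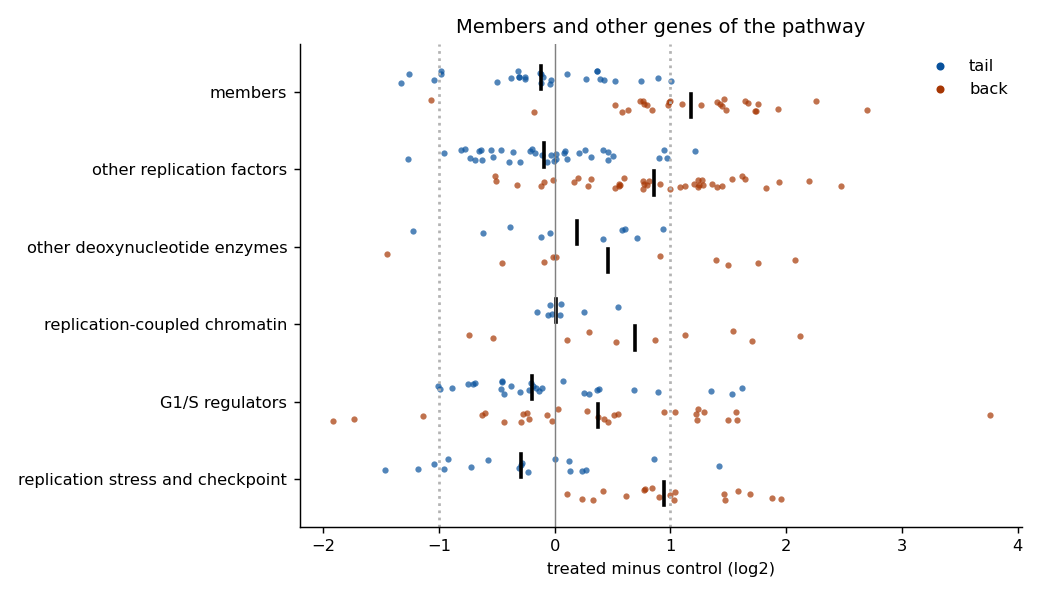
Treated minus control difference (log2, x axis) of each gene, for the replication genes (top row, named members) and the other lists of the pathway, in tail (blue) and back (orange), with black bars at the medians and dotted lines at 2-fold. The other lists together have a median of 0.78 in the back and -0.11 in the tail.

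Markers of other cell types also differed between these arrays. Of hair matrix and shaft genes, 4 of 6 were higher in treated tail (27.2% of all genes) and 4 of 7 were lower in treated back (12.6% of all genes). The summed signal of the 9 on the array, in units of the 75th percentile, was 27.0, 142, 3.47 and 1.22 in the array order above (2, 1, 0 and 0 of them saturated). Krt35 and Krt31 were saturated in untreated tail and Krt31 in treated tail, so the 2 tail sums are floors and cannot be compared. Lef1 was 2.26 higher in treated tail and 1.52 higher in treated back, and Dlx3 differed by -2.31 in treated back. The basal integrin Itga6 differed by 1.69 in the back and -2.05 in the tail, and the late differentiation gene Ivl by -1.98 in the back and 0.088 in the tail. Itga6 was the only 1 of 7 basal markers with a value in the tail. Ivl was the only 1 of 5 suprabasal markers with a value at either site. The others were saturated. In the back the basal genes Itgb4 and Trp63 were at least 2.32 and 0.81 higher, the first a bound. The 5 leukocyte markers summed to 3.27, 76.9, 13.0 and 57.8, the treated sums being floors because S100a8 was saturated on both treated arrays. Without S100a8 the other 4 summed to 1.62, 2.84, 4.33 and 1.66. In treated back S100a8 was at least 2.70 higher on the log2 scale. There Cd4 differed by -4.85, whereas Itgam, Ptprc and Csf1r differed by 1.84, 0.13 and -0.62. In treated tail S100a8 was at least 5.49 higher, and Cd4, Itgam, Ptprc and Csf1r differed by 1.29, 0.50, -1.18 and 0.18. At least 2-fold higher in treated tail were 3 of 5 fibroblast, 3 of 3 endothelial, 4 of 5 muscle, 2 of 2 adipocyte and 4 of 4 red cell markers with a value. In treated back the counts were 3 of 6 (1 lower), 2 of 3, 2 of 4, 0 of 3 and 1 of 4. Several of these markers had low signals in untreated and treated tail: Cdh5 41 and 84, Emcn 39 and 16, Tnnt3 40 and 48. The lowest signal well above background there was 21 and 10. Others were bright, such as Fabp4 (42375 and 24425). Of all genes with a value, 27.2% were at least 2-fold higher in treated tail and 13.6% in treated back. That tail share was 15.3% after quantile normalization, 14.2% after cyclic loess and 0.88% with spike-in scaling. Marker counts were made with the main scaling only. The part of the marker genes in the replication gene values was not tested. In bulk skin a change in the number of cells of a type and one in RNA per cell cannot be told apart.

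The normalization bears on the size of these differences. With scaling to spiked-in RNA every gene shifts by -0.53 in the back and -2.11 in the tail, after which 25 of 28 replication genes were positive in the back and all 28 were negative in the tail. The median of all genes then shifts from -0.012 to -0.52 in the back and from 0.33 to -1.67 in the tail, and it is 0.024 in the tail after quantile normalization, -0.072 after cyclic loess and 0.62 after normexp. Relative to all genes, the replication genes' median in the back lay between 1.02 and 1.20 above over all 11 alternatives, and in the tail it lay between 0.35 and 0.69 below.

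**Figure D5:**
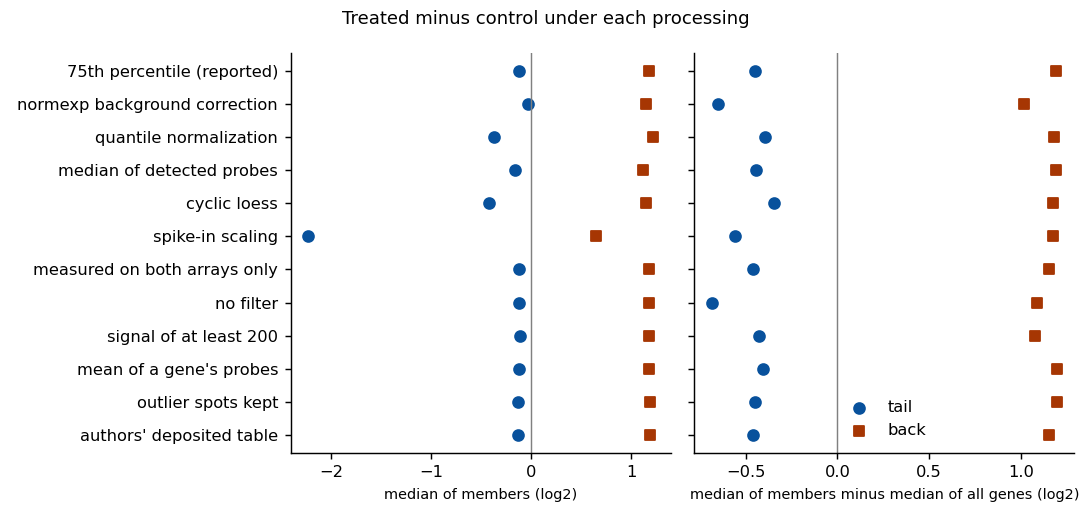
Left, median treated minus control difference (log2) of the replication genes (named members); right, that median minus the median of all genes; 1 row per processing, circles for tail and squares for back. The back median is 1.18 as reported and 0.65 with spike-in scaling, and relative to all genes it lies between 1.02 and 1.20 over the 11 alternatives.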

How the data were processed

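Cy3-labelled RNA (200 ng) of 4 groups was hybridised to 4 one-colour Agilent arrays on 1 slide, 1 per group. The deposited processed signal is the intensity of each spot, background-corrected by Feature Extraction 10.5.1.1 per the file headers; the submitters' processing notes name version 10.7. The authors' deposited table holds log2 values whose differences between arrays matched those of the processed signal, apart from a constant; its centring is not stated.

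Outlier spots and control spots were left out, spots of a probe were averaged, and log2 signal was centred on each array's 75th percentile. Of 41174 probes, 24375 (59.2%) matched a RefSeq symbol (GRCm38.p6) by accession; the brightest probe stood for a gene. A gene dim or saturated on 1 array gives a bound. Normexp used median pixel and background signals with an offset of 50, since mean signals were not in the columns used. Tools were Python 3.11.15, R 4.3.3 and limma 3.58.1. The calculation was run on simulated data without saturated spots or arrays of unlike brightness, so it was not tested for those. With 1 array per group no test was possible and counting intervals do not apply; the number of arrays limits the precision. All members were named; of each other list up to 4 genes a comparison by size among those at least 2-fold apart, and of marker lists up to 3, with a selection of these printed. The members and lists were chosen with earlier results of these data known. Alternatives covered background correction, scaling, filters and probe choice.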

Additional observations from a re-analysis of the deposited data

Results flagged for a closer look

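Rfc3, a subunit of the clamp loader, went in opposite directions at the 2 sites, -1.05 in the tail and 1.10 in the back (log2, treated minus control). The difference between the sites was not tested, since each group had 1 array. After normexp background correction the tail value was 0.14.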

How the results depend on the processing

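With 11 alternatives, 114 list values stayed within a set tolerance and 29 moved. A median had to stay within the median spot error. A count could change somewhat: 8 genes lower in untreated back minus tail became 11 with quantile and 12 with cyclic loess without being called moved. Of values per gene, 1186 stayed, 151 moved and 8 reversed. In the back 15 genes were at least 2-fold higher under every setting run per gene that gave them a value. E2f1 had none with a minimum signal of 200, where 14 were higher. Spike-in scaling was run for lists. No paired analysis was possible because each group had 1 array. Normexp reversed treated back minus treated tail for Ccne2 (-1.89), Cdc45 (-0.97), Cdc6 (-0.35), E2f1 (-0.70) and Mcm3 (-0.62), the back minus tail response of Ccne2 (-1.64) and Cdc45 (-1.31), and the tail value of Rfc3 (0.14), among other signs: in all it turned 13 of 28 tail values, Ccne2 (2.27), Mcm3 (0.90) and Fen1 (0.29) among them, and 10 of 28 of treated back minus treated tail, Rfc3 (-0.91) among them. The cause was not tested. Medians moved with spike-in scaling to 0.65 (back), -2.23 (tail), -1.51 (untreated back minus tail), 1.40 (treated back minus tail) and 2.90 (response difference); with cyclic loess to -0.42 (tail) and -0.77 (untreated back minus tail); with quantile normalization to -0.37 (tail); and with a minimum signal of 200 to 1.00 (response difference). Counts moved as follows. Higher in treated back were 8 with spike-in scaling, and lower were 0 with normexp or the mean of a gene's probes. Higher in treated tail were 0 with the authors' table, cyclic loess, mean of probes, median of detected probes, outlier spots kept, quantile or spike-in scaling, and 4 with normexp. Lower in treated tail were 6 with cyclic loess, 5 with the median of detected probes, 7 with quantile and 28 with spike-in scaling. In untreated back minus tail, spike-in scaling gave 1 higher and 22 lower. In treated back minus tail, higher were 7 with a minimum signal of 200 and 20 with spike-in scaling, and lower was 1 with normexp. The share of all genes' tail calls that were higher was 80.6% in the main setting, 91.3% with normexp, 57.8% with quantile, 54.0% with cyclic loess and 1.2% with spike-in scaling. In the back it was 51.8% and 17.3% with spike-in scaling. Between untreated skins it was 61.4%, and 47.3%, 48.0% and 16.7% with quantile, loess and spike-in scaling; between treated skins it was 43.7%, and 21.8% with normexp and 72.7% with spike-in scaling. Mcm6 and Pcna, saturated in untreated tail, are limited to bounds there.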
